A study of Rattus norvegicus with 8 samples.

Results

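The genes described here copy DNA and divide the nucleus. They were listed by name for their known function, 42 in all, of which 17 act in DNA replication and 25 in the cell cycle and mitosis. A gene was measured where a probe set of the array carried its symbol and no other, and where there were several, the probe set that read highest on average on the 6 arrays of single animals stood for the gene. This gave 39 of the 42 genes, 15 of replication and 24 of the cycle and mitosis, among 14217 genes measured in this way. Rrm2, Gins2 and Tpx2 had no such probe set and have no value here.

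The samples were ovaries of female Sprague-Dawley rats at 15 weeks of age. DHT rats had carried a capsule that released 5α-dihydrotestosterone, a potent androgen that aromatase does not turn into estrogen, for 12 weeks, as a model of the androgen excess of polycystic ovarian syndrome, and CTL rats had carried an empty capsule. Each group had 3 arrays of single animals and 1 array of their pooled RNA, all from ovarian cortex on an Affymetrix whole-genome rat array, which reads mRNA near its 3' end. According to the study's methods, most CTL ovaries held corpora lutea and the DHT ovaries held few or none, so the groups also differ in which structures and cells the tissue contained. Every value is a log2 value normalized by GCRMA unless it is called a fold change, and every difference is DHT minus CTL.

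Before a cell divides, the MCM helicase is loaded on origins of replication, the GINS complex helps to start it, primase and polymerase alpha lay down primers, and the sliding clamp PCNA, set on DNA by the RFC loader, holds the polymerases in place. Cyclins with their kinases then drive the cell into mitosis, where kinesins and kinetochore proteins move chromosomes on the spindle, a checkpoint waits for their attachment, and the anaphase-promoting complex ends mitosis by having cyclins destroyed. In the ovary, granulosa cells of growing follicles are known as the main dividing cells, and luteal cells arise when these cells leave the cycle after ovulation. E2F factors are known to act on replication genes through sites near their starts, and mitosis genes often carry a CHR, the cell cycle genes homology region, together with CCAAT boxes bound by NF-Y.

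The promoters show how the members fall into these classes by sequence, which played no part in choosing them. RefSeq promoter windows of 300 bases, 250 before and 50 after the gene start in build GRCr8, were matched by symbol for 35 of the 39 measured members, 14 of replication and 21 of the cycle and mitosis. Mcm4, Ccna2, Aurkb and Ube2c had no window. Both strands were searched for the CHR as TTTGAA, the CCAAT box as CCAAT, and E2F sites in 3 forms, TTCCCGCC, TTTCGCGC and TTTGGCGC. An E2F form was found in 12 of 14 replication members and in 1 of 21 cycle and mitosis members, Cdk1, against 4.82% of the 11734 windows of genes measured on the array and 2.68% of all 33469 windows of the table. The CHR letters were found in 12 of 21 cycle and mitosis members and in 1 of 14 replication members, Mcm2, against 12.3% of the measured genes' windows and 18.3% of all. A CCAAT box was present in 10 of 14 and 16 of 21 members and in 37.3% of the measured genes' windows and 37.5% of all, and 11 of the 21 cycle and mitosis members held both a CHR and a CCAAT box, against 5.02% and 7.41%. The median content of G and C was 55.67% in replication and 58.67% in cycle and mitosis members, below the 60% of the measured genes' windows and above the 51.67% of all windows, and the part of base composition in these shares was not tested. A match is a description of the letters and not a site in use.

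The 250 bases before the start are shown for a pair of replication genes, chosen as helicase subunits past 2-fold, with E2F forms (8 letters, or a longer run where matches overlap) and CCAAT boxes (CCAAT, or ATTGG on the other strand) in capitals. Coordinates are chr12:22163179-22163428 on the minus strand for Mcm7 and chr13:42404353-42404602 on the minus strand for Mcm6.

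Mcm7: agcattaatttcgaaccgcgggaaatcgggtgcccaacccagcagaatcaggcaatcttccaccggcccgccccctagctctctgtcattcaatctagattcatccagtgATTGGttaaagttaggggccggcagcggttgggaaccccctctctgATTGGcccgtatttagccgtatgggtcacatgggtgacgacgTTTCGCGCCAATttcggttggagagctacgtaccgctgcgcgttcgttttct

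Mcm6: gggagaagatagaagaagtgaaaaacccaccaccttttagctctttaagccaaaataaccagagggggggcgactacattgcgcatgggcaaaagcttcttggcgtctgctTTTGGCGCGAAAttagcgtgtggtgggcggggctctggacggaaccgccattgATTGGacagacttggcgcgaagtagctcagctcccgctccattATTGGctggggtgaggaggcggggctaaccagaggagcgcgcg

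In Mcm7 the E2F form and a CCAAT box overlap by 1 base between positions -52 and -41 from the start. Mcm6 carries E2F forms on both strands that overlap between -139 and -128. The next 4 are cycle and mitosis genes, shown since Cdc20 was among those of smallest p and Cdk1, Mki67 and Top2a are named below whatever their values; capitals mark the CHR (TTTGAA, or TTCAAA on the other strand), CCAAT boxes and, in Cdk1, an E2F form. Coordinates are chr5:137255800-137256049 on the minus strand for Cdc20, chr20:19265043-19265292 on the plus strand for Cdk1, chr1:199952594-199952843 on the minus strand for Mki67 and chr10:84473094-84473343 on the minus strand for Top2a.

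Cdc20: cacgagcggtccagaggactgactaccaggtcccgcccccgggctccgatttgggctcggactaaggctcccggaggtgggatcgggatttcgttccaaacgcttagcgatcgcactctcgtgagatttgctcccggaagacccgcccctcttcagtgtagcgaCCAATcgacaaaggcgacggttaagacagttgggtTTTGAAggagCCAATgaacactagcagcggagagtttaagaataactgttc

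Cdk1: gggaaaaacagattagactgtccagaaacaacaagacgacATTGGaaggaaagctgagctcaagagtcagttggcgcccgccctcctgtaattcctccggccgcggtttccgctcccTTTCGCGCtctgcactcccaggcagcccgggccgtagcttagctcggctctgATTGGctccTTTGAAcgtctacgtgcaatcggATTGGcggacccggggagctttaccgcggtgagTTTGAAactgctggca

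Mki67: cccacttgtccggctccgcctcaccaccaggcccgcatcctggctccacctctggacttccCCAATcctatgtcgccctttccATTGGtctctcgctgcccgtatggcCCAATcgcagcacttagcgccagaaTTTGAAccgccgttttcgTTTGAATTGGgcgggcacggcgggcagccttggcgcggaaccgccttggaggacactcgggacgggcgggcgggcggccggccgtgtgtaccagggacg

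Top2a: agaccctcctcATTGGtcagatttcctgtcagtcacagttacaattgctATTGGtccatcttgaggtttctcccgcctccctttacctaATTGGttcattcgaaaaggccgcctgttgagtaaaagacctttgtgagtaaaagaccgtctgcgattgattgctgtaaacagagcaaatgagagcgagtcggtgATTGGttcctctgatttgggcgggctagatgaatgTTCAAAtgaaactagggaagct

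Cdk1 and Mki67 each hold 2 CHR matches. In Mki67 the second overlaps a CCAAT box, and Top2a carries 4 CCAAT boxes before a CHR on the other strand at -22 to -17. Among the 12 cycle and mitosis members with a CHR, the match nearest to the start lay between -51 and 15 in 11, all but Mki67. Among the 12 replication members with an E2F form, the nearest lay between -52 and 7 in 8.

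**Figure D1:**
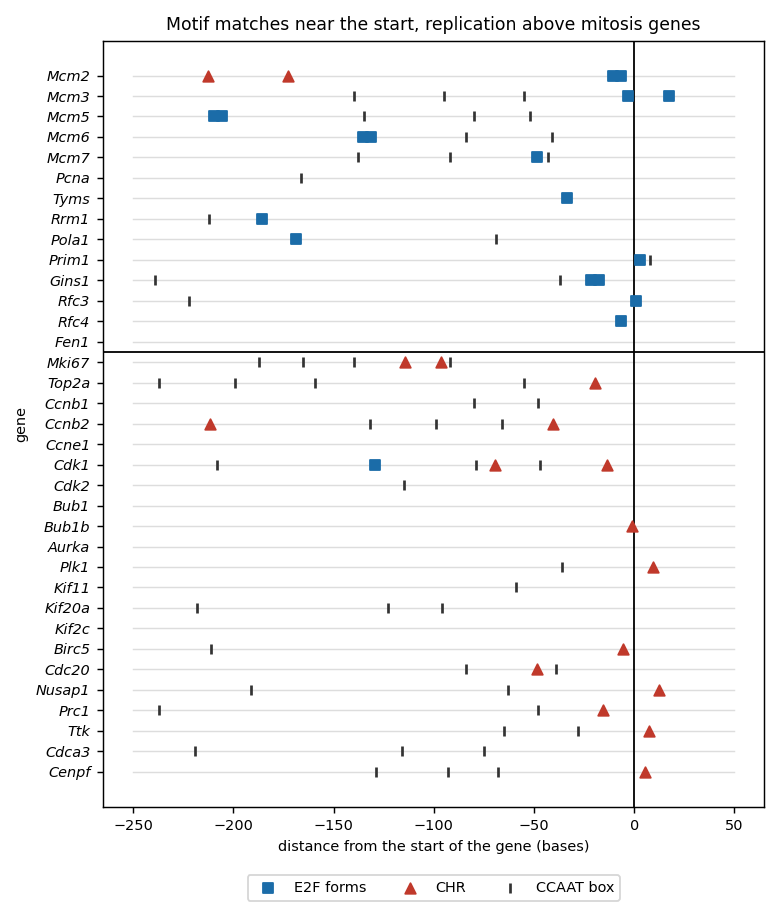
Position of motif matches in the RefSeq windows of 35 members, in bases from the gene start (vertical line at 0), with 1 row per gene, replication genes above and cycle and mitosis genes below the horizontal line. Squares are E2F forms, triangles the CHR and bars CCAAT boxes; squares stand almost only in the upper block, in 12 of 14 rows, and triangles almost only in the lower block, in 12 of 21 rows.

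Across the list, replication and mitosis genes read higher on the DHT arrays than on the CTL arrays, but no member passed the test. All 15 replication members and 21 of 24 cycle and mitosis members had a positive log2 fold change, while 37.5% of all 31042 probe sets had one, and 57.7% of the 15684 probe sets that lay above background on every array. The median log2 fold change was 0.64 over the replication members and 0.53 over the cycle and mitosis members. It was -0.029 over all probe sets and 0.10 over those above background on every array. With Ccne1 and Cdk2 counted under replication, the medians of the 2 classes were 0.63 and 0.61. The positive values reached 2-fold in Mcm7, Mcm6 and Prim1 of replication and in Ube2c and Kif20a of mitosis. Negative values were found in Aurka, Kif2c and Ccne1.

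The call required a difference of at least 2-fold, a p no higher than 0.01 and a false discovery rate no higher than 10%, all in limma. By these criteria 0 members were called higher and 0 lower, while 0.68% of all probe sets were called higher and 0.351% lower. At an unadjusted p under 0.05 in limma, 5 of 15 replication members (Mcm2, Mcm7, Rrm1, Prim1, Rfc3) and 3 of 24 cycle and mitosis members (Cdk2, Kif20a, Cdc20) were higher and none was lower, beside 7.94% of all probe sets higher and 3.92% lower. Of the 15684 probe sets above background on every array, 2188 were higher and 924 lower by the same measure. All 3 DHT arrays lay above all 3 CTL arrays in 9 of 15 replication members, in the same 3 cycle and mitosis members, in 10.6% of all probe sets and in 18.2% of those above background on every array. With 3 animals in each group, the smallest p that an exact permutation test of a single gene can give is 0.1, and so few arrays limit how precisely any value is known. The extraction protocol in the labels calls the 3 ovaries of a group independent. In bulk tissue fewer cells of a type and less RNA per cell cannot be told apart.

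**Figure D2:**
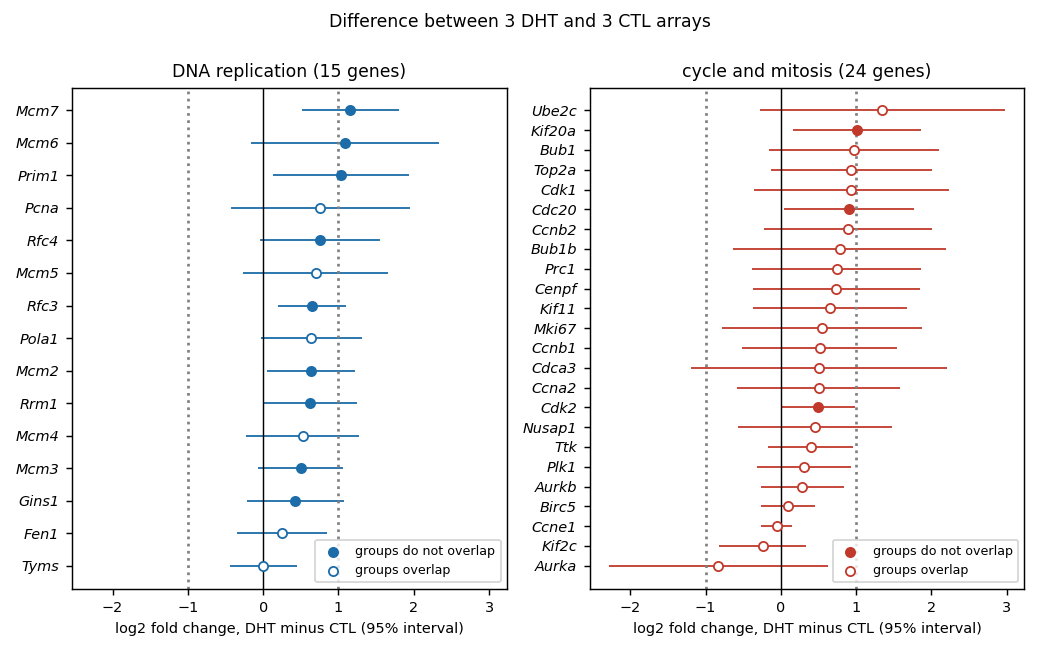
Log2 fold change of each measured member, DHT minus CTL, with its 95% interval from limma (n = 3 arrays per group), replication at left and cycle and mitosis at right, sorted by value. Filled circles are genes whose groups do not overlap (9 and 3), open circles those whose groups overlap, and dotted lines mark a 2-fold difference; intervals are wide and most reach 0.

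The helicase that opens the double helix holds 6 MCM subunits, all of them members. Mcm7 read 7.73, 7.53 and 7.79 in DHT replicates 1, 2 and 3 and 6.32, 6.20 and 7.07 in CTL replicates 1, 2 and 3. All DHT arrays lay above all CTL arrays, and the 3 DHT values lay closer together than the CTL values. Its log2 fold change was 1.16 ± 0.25 (SE), with a 95% interval of 0.51 to 1.80 and an adjusted p of 0.152 in limma, the lowest p among the members. Without CTL replicate 3, the highest of the CTL arrays here, the value was 1.43 with an adjusted p of 0.0184, and Mcm7 was called. That fit called 654 of all 31042 probe sets higher and 968 lower. The array of pooled RNA read 7.71 in DHT and 6.71 in CTL.

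The other MCM subunits had positive values too, from 0.50 in Mcm3 to 1.09 in Mcm6. In Mcm6 the DHT arrays read 5.74, 5.94 and 6.61 and the CTL arrays 5.73, 5.24 and 4.06, so that DHT replicate 1 and CTL replicate 1 were nearly level and CTL replicate 3 stood lowest. Its interval of -0.17 to 2.34 reached past 0. Mcm2, Mcm3 and Mcm6 shared with Mcm7 that no CTL array reached the lowest DHT array, while the groups overlapped in Mcm4 and Mcm5. Mcm2 was 0.63 ± 0.23 higher, Mcm4 0.52 ± 0.29 and Mcm5 0.70 ± 0.38 (SE), with adjusted p of 0.381, 0.619 and 0.603 in limma. Gins1, a subunit of the GINS complex that travels with the helicase, read 3.16 to 3.18 in CTL and 3.44, 3.21 and 4.15 in DHT.

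Primase makes the RNA primers of each new strand, and Prim1 encodes its catalytic subunit. Prim1 read 6.10, 6.32 and 6.48 in DHT and 5.47, 5.80 and 4.51 in CTL. The groups did not overlap, and CTL replicate 3 was the lowest array. Its log2 fold change was 1.04 ± 0.36 (SE), with an adjusted p of 0.346 in limma. Pola1, the catalytic subunit of polymerase alpha, was 0.64 ± 0.26 higher (SE, adjusted p = 0.444 in limma), with DHT replicate 2 at 4.64 just under CTL replicate 3 at 4.68. Fen1, which cuts the flaps left between fragments of the lagging strand, read 3.54 to 3.57 on the 3 CTL arrays, 3.54 and 3.55 on DHT replicates 1 and 2 and 4.33 on DHT replicate 3.

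The clamp PCNA and its loader showed the same sign with different spread. Rfc3, a small subunit of the loader, read 5.20, 5.06 and 5.17 in DHT and 4.77, 4.59 and 4.14 in CTL. The 3 DHT values lay close together and above every CTL value. The log2 fold change was 0.65 ± 0.18 (SE), with a 95% interval of 0.19 to 1.10 and an adjusted p of 0.240 in limma. Rfc4, another small subunit, was 0.75 ± 0.31 higher (SE) without overlap. Pcna itself read 8.45, 8.52 and 8.96 in DHT and 8.54, 8.23 and 6.89 in CTL. Only CTL replicate 3 lay clearly apart there, and CTL replicate 1 was above DHT replicates 1 and 2. Its value of 0.76 ± 0.47 (SE, adjusted p = 0.680 in limma) became 0.26 without CTL replicate 3.

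Nucleotide supply was uneven. Rrm1, the large subunit of ribonucleotide reductase, was 0.63 ± 0.25 higher (SE, adjusted p = 0.420 in limma) without overlap of the groups. Tyms, the enzyme that makes thymidylate, had a difference of 9.53e-05 ± 0.18 (SE), with a 95% interval of -0.45 to 0.45. It read 3.46, 3.33 and 3.70 in DHT and 3.32, 3.36 and 3.81 in CTL, a range that both groups shared.

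Among the cyclins and kinases, no group mean but that of Ccne1 was lower in DHT. Cdk1, the kinase that drives entry into mitosis, read 5.72, 5.64 and 6.72 in DHT and 5.95, 4.96 and 4.35 in CTL. DHT replicate 3 stood above all CTL arrays, while CTL replicate 1 stood above the other DHT arrays. The log2 fold change was 0.94 ± 0.51 (SE, adjusted p = 0.601 in limma). Its partner cyclin B1 (Ccnb1) read 4.27, 4.12 and 5.16 in DHT and 4.43, 4.20 and 3.37 in CTL. CTL replicates 1 and 2 lay between or above DHT replicates 1 and 2, and the difference of 0.52 ± 0.40 (SE, adjusted p = 0.840 in limma) was -0.12 on those 4 arrays. A second probe set of Ccnb1 gave 0.12.

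Cyclin B2 (Ccnb2) and cyclin A2 (Ccna2) had differences of 0.89 ± 0.44 and 0.50 ± 0.43 (SE), and their groups overlapped. Cdk2, the kinase of S phase, read 4.25, 4.01 and 4.71 in DHT and 3.88, 3.75 and 3.85 in CTL. Here all DHT arrays were above all CTL arrays. Its difference of 0.50 ± 0.19 (SE) had an adjusted p of 0.408 in limma. A second probe set of Cdk2, near background on 1 array, gave 0.19. Ccne1, the cyclin that acts with Cdk2 at the entry to S phase, lay at 2.86 to 3.07 on the 6 arrays with a difference of -0.05 ± 0.08 (SE).

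Mki67 and Top2a are widely used marks of dividing cells. Mki67 read 5.88, 5.75 and 7.20 in DHT and 5.87, 5.02 and 6.29 in CTL. DHT replicate 3 was the highest array and CTL replicate 2 the lowest, with the other 4 arrays of both groups mixed between them. The difference was 0.55 ± 0.52 (SE), with a 95% interval of -0.77 to 1.88 and an adjusted p of 0.896 in limma. Top2a, the topoisomerase that untangles sister chromatids, read 5.13, 5.00 and 6.25 in DHT and 5.02, 4.14 and 4.41 in CTL. CTL replicate 1 and DHT replicate 2 were level, and the other DHT arrays lay above all CTL arrays. Its difference was 0.94 ± 0.42 (SE, adjusted p = 0.481 in limma), and a second probe set gave 0.36.

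Spindle and kinetochore genes were higher in DHT in all but 1 of 6 cases. Kif20a, a motor of the central spindle needed for the final cut between daughter cells, read 4.69, 4.22 and 5.39 in DHT and 4.09, 3.56 and 3.61 in CTL. The groups did not overlap, though DHT replicate 2 was only a little above CTL replicate 1. With 1.01 ± 0.34 (SE) it had the smallest p of the cycle and mitosis members, and its adjusted p was 0.329 in limma. Kif11, the motor that pushes spindle poles apart, Prc1, which bundles midzone microtubules, Cenpf, a kinetochore protein, and Nusap1, a spindle protein, were 0.46 to 0.74 higher with overlap. A second probe set of Nusap1 gave -0.18, opposite in sign. That of Kif11, near background on all 8 arrays, gave -0.06. Kif2c, a kinesin that takes microtubules apart, lay at 2.91 to 2.95 on 5 arrays and at 3.67 on CTL replicate 3, and its difference of -0.24 ± 0.23 (SE) rested on that array and was 0.015 without it. A second probe set of Kif2c, near background on 4 arrays, gave 0.55, opposite in sign.

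Genes of the spindle checkpoint and the mitotic kinases ranged from -0.83 to 0.97. Bub1, a checkpoint kinase of the kinetochore, read 4.55, 4.33 and 5.74 in DHT and 4.39, 3.74 and 3.57 in CTL. DHT replicates 1 and 3 stood above all CTL arrays, and DHT replicate 2 stood just under CTL replicate 1. Its difference was 0.97 ± 0.45 (SE, adjusted p = 0.493 in limma). The related Bub1b was 0.79 ± 0.56 higher (SE), with 5.77 on DHT replicate 3 and 3.54 to 4.65 on the other 5 arrays. Ttk, Plk1, Aurkb and Birc5 had differences of 0.09 to 0.40, all with overlap. A second probe set of Ttk, near background on 7 arrays, gave -0.20, opposite in sign.

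Aurka, the kinase that matures spindle poles, ran the other way. It read 3.99, 3.94 and 4.41 in DHT and 6.17, 4.56 and 4.09 in CTL. CTL replicate 1 was far above the rest, CTL replicate 2 was next, and CTL replicate 3 lay inside the DHT range. The difference was -0.83 ± 0.57 (SE, adjusted p = 0.755 in limma), and without CTL replicate 1 it was -0.21.

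The 3 genes grouped under the anaphase-promoting complex and protein degradation were all higher in DHT on average. Cdc20, the activator of the anaphase-promoting complex, read 3.78, 3.87 and 4.81 in DHT and 3.63, 3.02 and 3.08 in CTL. The groups did not overlap, with little room between the lowest DHT and the highest CTL array. Its difference of 0.91 ± 0.34 (SE) had an adjusted p of 0.394 in limma. Of its 4 other probe sets, 3 lay near background on 7 or 8 arrays, and the fourth, above background on all, gave -0.04. Ube2c, the enzyme that brings ubiquitin to that complex, had the largest difference of all members at 1.35 ± 0.64 (SE, adjusted p = 0.512 in limma). It read 5.63, 5.46 and 6.81 in DHT and 5.68, 4.55 and 3.63 in CTL, and CTL replicate 1 was above DHT replicates 1 and 2. Cdca3, a trigger of mitotic entry, had the widest interval of the 39 members, -1.19 to 2.21 around 0.51.

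**Figure D3:**
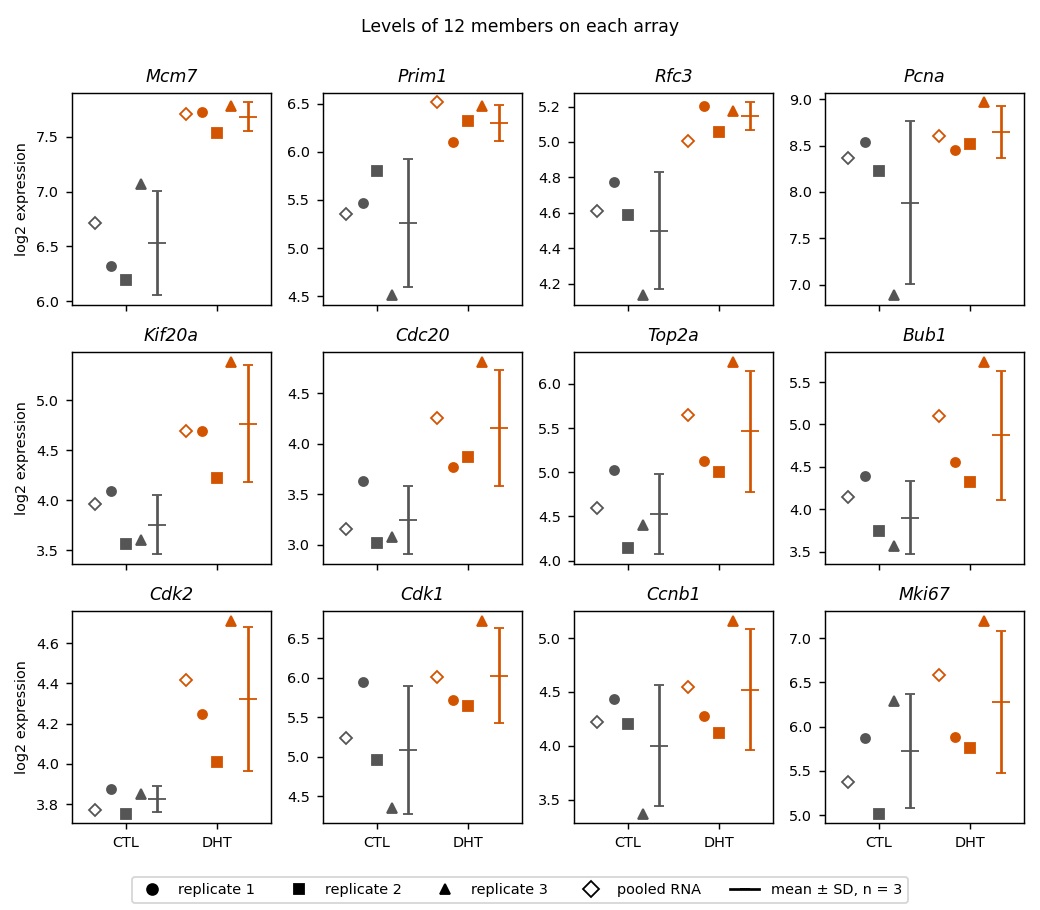
Log2 expression of 12 members in CTL (grey) and DHT (orange), with a filled symbol per single-animal array (circle, square and triangle for replicates 1, 2 and 3), an open diamond for pooled RNA, and a bar for mean ± SD (n = 3). The vertical scale differs between panels and does not start at 0; the DHT triangle is the top filled DHT symbol in every panel but Rfc3, and groups separate in Mcm7, Prim1, Rfc3, Kif20a, Cdc20 and Cdk2.

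The DHT animals were not alike in these genes. DHT replicate 3 was the highest DHT array in 38 of 39 members, in 14 of 15 replication and in 24 of 24 cycle and mitosis members, with Rfc3 as the exception, and in 53.2% of all probe sets. It exceeded the mean of DHT replicates 1 and 2 by a median of 0.68 log2 units in replication and 1.08 in cycle and mitosis members, against 0.012 over all probe sets. The excess was 1.56 in Bub1b and 1.38 in Mki67, but 0.15 in Mcm7 and 0.04 in Rfc3. DHT replicate 3 lay above all CTL arrays in 35 members, beside 19.4% of all probe sets and 30.7% of those above background on every array.

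Without DHT replicate 3 the differences were smaller. The median over the replication members was then 0.41, and 13 of 15 stayed positive. For the cycle and mitosis members it was 0.25, with 20 of 24 positive, while 36.4% of all probe sets and 57.2% of those above background were positive on these arrays. The largest values on DHT replicates 1 and 2 against the 3 CTL arrays were 1.10 in Mcm7 and 0.95 in Prim1, both replication genes.

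CTL animals differed as well, and in both classes not equally. CTL replicate 1 was above CTL replicate 2 in 24 of 24 cycle and mitosis members and in 11 of 15 replication members, beside 64.0% of all probe sets and 51.6% of those above background on every array. The median gap was 0.52 in cycle and mitosis and 0.12 in replication members, and it reached 1.61 in Aurka, 1.13 in Ube2c and 1.04 in Ccnb2. CTL replicate 2 was the lowest CTL array in 17 of 24 cycle and mitosis members and in 4 of 15 replication members. CTL replicate 3 had no fixed place, being the highest CTL array in 15 members and the lowest in 16, and it differed from the mean of the other CTL arrays by -1.49 in Pcna to 1.69 in Cdca3. All these counts come from single animals, so they describe the animals and not the groups.

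**Figure D4:**
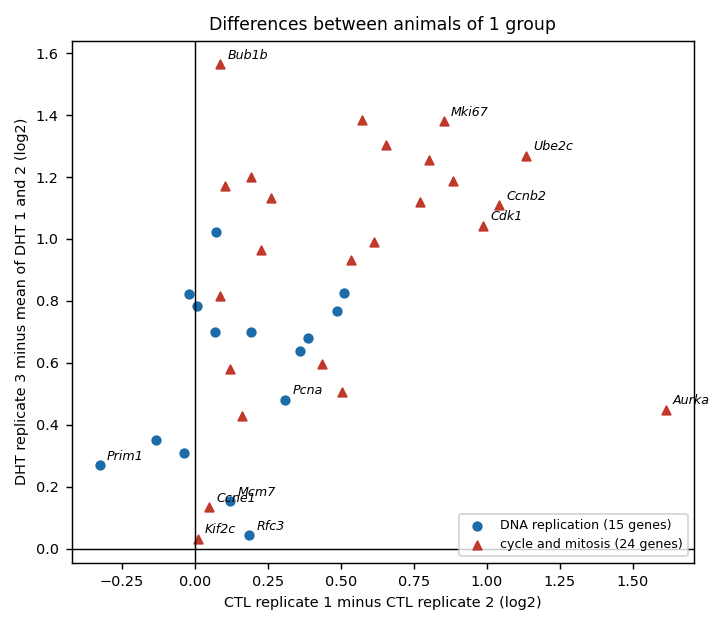
Each point is a member, with the log2 difference between CTL replicates 1 and 2 on the horizontal axis and that of DHT replicate 3 from the mean of DHT replicates 1 and 2 on the vertical axis; circles are replication genes and triangles cycle and mitosis genes. All points lie above the horizontal line at 0, all triangles lie to the right of the vertical line, and the excess on DHT replicate 3 has a median of 0.68 for circles and 1.08 for triangles.

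Seen by array, the median deviation of the replication members from their own means was -0.11, -0.29 and -0.48 on CTL replicates 1, 2 and 3 and 0.12, 0.08 and 0.72 on DHT replicates 1, 2 and 3. That of the cycle and mitosis members was -0.05, -0.58 and -0.20 in CTL and 0.02, -0.10 and 1.11 in DHT. So each DHT array lay above each CTL array for replication, while for mitosis DHT replicate 2 lay below CTL replicate 1. The arrays of pooled RNA, which hold the RNA of the same animals and are no further replicate, gave a median difference of 0.55 in replication and 0.77 in cycle and mitosis members, with 37 of 39 positive and 7 past 2-fold. In this comparison 69.5% of all probe sets and 58.8% of those above background on every array were positive, and 2.26% and 3.98% were past 2-fold higher.

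**Figure D5:**
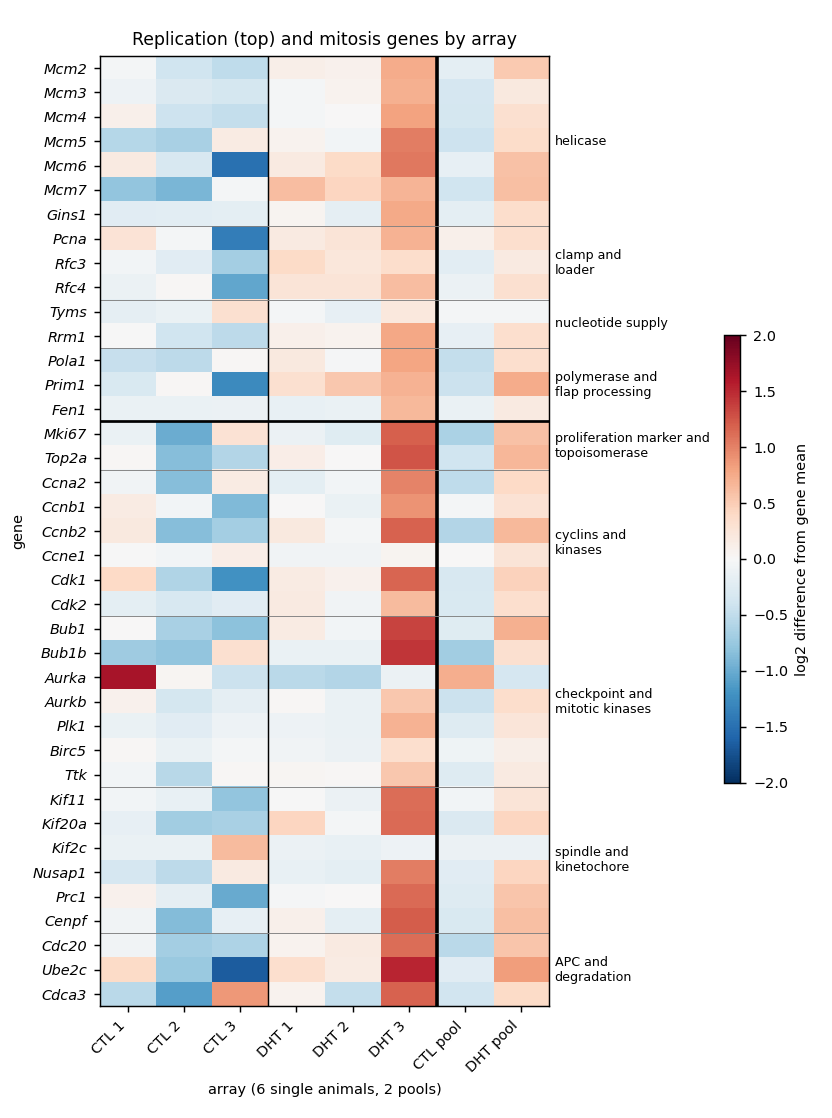
Deviation of each member (rows, grouped by role) on each array (columns) from its mean over the 6 single-animal arrays, in log2 units, red above and blue below. The column of DHT replicate 3 is red in nearly every row, with a median of 0.72 in replication and 1.11 in cycle and mitosis members, while Aurka is highest on CTL replicate 1 and Kif2c on CTL replicate 3.

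RNA quality and signal level moved with the arrays. The log2 signal of Gapdh at its 3' control probe set minus that at its 5' one, which grows as mRNA is cut short at its 5' end, was 2.99 to 3.98 in DHT and 3.49 on CTL replicate 3, but 0.39 and 0.62 on CTL replicates 1 and 2. CTL replicate 3 also had the highest array median, 3.25 against 2.97 to 3.03 on the other arrays, and the highest background level, 3.07 against 2.62 to 2.71. Against CTL replicate 3 alone, the CTL array with a similar Gapdh difference, the DHT mean was higher in 34 of 39 members, in 35% of all probe sets and in 57.4% of those above background on every array, with a median of 0.74 in replication and 0.40 in cycle and mitosis members. With CTL replicate 3 left out, those medians were 0.46 and 0.62. On DHT replicates 1 and 2 against CTL replicates 1 and 2 they were 0.31 and 0.33. With the Gapdh difference as a covariate, 30 of 39 members were positive, and the share of all probe sets that were positive was not counted. Prim1 was called higher in that fit, beside 2659 of all 31042 probe sets, and 1088 were called lower. Of the members, 34 lay above the background level on all 8 arrays and none was near it on all, while Mcm3, Plk1, Kif11, Birc5 and Prc1 were near it on 1 CTL array each.

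Markers of ovarian cell types also differed between the arrays. The summed log2 level of 11 granulosa cell markers was 94.8 to 97.6 in DHT and 87.6 to 91.7 in CTL, and 9 of the 11 were higher in DHT on average. Inhba, an activin and inhibin subunit, was called among them at 1.45 ± 0.20 (SE, adjusted p = 0.0692 in limma), while Amh, a hormone of small growing follicles, had 0.97 and Foxl2, the granulosa cell fate factor, 0.09. Cyp19a1, the aromatase that forms estrogen, went the other way in the same list at -2.91 ± 1.11 (SE, adjusted p = 0.404 in limma) and was not called, with 7.51, 6.46 and 5.08 in DHT and 7.20, 10.64 and 9.94 in CTL. CTL replicate 3 was the lowest CTL array in 7 of the 11 granulosa cell markers. Against CTL replicates 1 and 2 alone, the DHT mean was higher in 7 of the 11. For 9 luteal and steroidogenic markers the sum was 57.5 to 73.3 in DHT and 87.4 to 101.02 in CTL, with all 9 lower on average and 0 called in limma (5 at an unadjusted p under 0.05). DHT replicate 3, the array on which the members stood highest, was the lowest DHT array in 8 of those 9 markers, beside 6785 of all 31042 probe sets. Star, which brings cholesterol into mitochondria, read 6.01 there against 8.34 and 9.62 on the other DHT arrays and 11.35 to 12.39 in CTL. Lhcgr, the receptor for luteinizing hormone, had a difference of -0.63. DHT replicate 3 was also the lowest DHT array in 7 of 7 endothelial and 5 of 8 macrophage markers. It was so in 3 of 11 granulosa and 1 of 8 theca and stroma markers. Their part in the members' values was not tested.

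Markers of other cell types were summed in the same way. The sum over 8 theca and stroma markers was 68.9 to 69.9 in DHT and 49.7 to 66.96 in CTL, with the theca hormone Insl3 called at 3.11 and the androgen-forming enzyme Cyp17a1 at 2.65 but not called, and all 8 had positive differences. CTL replicate 3 was the lowest CTL array in 7 of these 8 markers. Against CTL replicates 1 and 2 alone, the DHT mean was higher in only 4 of the 8. Over 7 endothelial markers it was 34.2 to 38.2 in DHT and 36.8 to 43.2 in CTL, and 6 of the 7 had negative differences with a median of -0.55. The vessel markers Pecam1 at -1.10 and Kdr at -1.16 were the lowest and Vwf, a clotting protein of these cells, the highest at 0.35, none of them called. Macrophage markers (8) summed to 37.4 to 39.3 in DHT and 40.1 to 47.9 in CTL, with the protease Ctss called lower at -1.16, and Cd68 and Csf1r at -1.56 and -0.31 and not called, and 7 of the 8 had negative differences. The sums were 18.8 to 19.3 and 18.7 to 19.9 for 6 lymphocyte markers, where Cd3e differed by 0.13 and Cd3d by 0.09 and where Cd3d, Cd2 and Cd79b were near background on 7 or 8 arrays. They were 25.6 to 31.9 and 23.6 to 26.1 for 7 surface epithelium markers, where 4 differences were positive and 3 negative and none was called. The keratins Krt7 and Krt8 differed by -0.0086 and -0.0048, Msln, a surface protein of mesothelium, by -0.76 and the adhesion protein Cdh1 by 3.37. Cdh1 read 8.34, 8.92 and 4.32 in DHT and 3.16, 4.49 and 3.83 in CTL, so that it was high on DHT replicates 1 and 2 only. For 5 oocyte markers the sums were 16.1 to 17.2 and 13.97 to 16.2, with Gdf9 at -0.09, Bmp15 at -0.04 and Zp2, a protein of the egg coat, called higher at 1.55, while Bmp15 and Zp1 were near background on all 8 arrays. A part of these cells in the members' values was not tested.

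Further genes of the same processes were counted in lists that hold none of the members. Of 34 further replication genes measured, 29 had a positive difference, the median was 0.48, and 0 were called higher and 1 lower. That gene was Rnaseh2a, the catalytic subunit of the enzyme that takes ribonucleotides out of DNA. It read 6.44, 6.49 and 6.44 in DHT and 7.95, 8.02 and 8.08 in CTL, and the arrays of each group lay close together, far from the other group. With -1.56 ± 0.06 (SE) and an adjusted p of 0.0148 in limma it fell by 1.56 on the log2 scale, opposite to the members, and the call was lost when any 1 DHT array was left out, when 0 probe sets of any kind were called, while the difference itself was -1.55 without DHT replicate 3. Orc2, a subunit of the origin recognition complex, was 0.63 ± 0.08 higher (SE, adjusted p = 0.0646 in limma) without overlap, short of 2-fold. Rfc1, the large subunit of the clamp loader, had 0.72 ± 0.17 and Lig1, the ligase of replication, 0.91 ± 0.31 (SE), and neither was called.

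Of 47 further mitosis genes, 43 had a positive difference, the median was 0.40, and 0 were called in limma in either direction (3 higher and 0 lower at an unadjusted p under 0.05). Kif15, a spindle motor, read 5.03, 4.77 and 5.86 in DHT and 3.70, 3.65 and 4.10 in CTL, a difference of 1.40 ± 0.32 (SE, adjusted p = 0.161 in limma) without overlap. Smc2, the core of condensin, which packs chromosomes, was at 0.82 ± 0.26, Kif18b, a motor at microtubule ends, at 0.65 ± 0.25, and Nuf2, part of the kinetochore's hold on microtubules, at 0.98 ± 0.40 (SE). DHT replicate 3 was the highest DHT array in 45 of the 47 and in 27 of the 34 further replication genes.

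Genes that control entry to the cycle went both ways. Of 28 measured, 20 had a positive difference and 0 were called in limma (4 higher and 2 lower at an unadjusted p under 0.05). Cyclin D1 (Ccnd1), which starts the cycle in response to growth signals, read 4.08, 4.29 and 4.30 in DHT and 4.48, 4.88 and 4.97 in CTL, a difference of -0.55 ± 0.16 (SE, adjusted p = 0.246 in limma). Cdkn2c and Cdkn1c, both inhibitors of cyclin-dependent kinases, had differences of 0.86 ± 0.21 and 1.21 ± 0.39, and Mycn, a transcription factor of the MYC family, one of 1.63 ± 0.46 (SE). In all 4 of these genes the groups did not overlap, and none passed the test, with adjusted p of 0.176 to 0.318 in limma. Inhibitors of these kinases did not share a direction. Cdkn1a and Cdkn1b, also inhibitors, were lower at -1.56 ± 0.74 and -0.45 ± 0.16 (SE, adjusted p = 0.510 and 0.344 in limma). The groups overlapped in Cdkn1a but not in Cdkn1b, and neither gene was called.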

How the data were processed

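Ovarian RNA of 3 DHT and 3 CTL rats, and a pool of each group, was read on 8 arrays. The authors normalized the arrays by GCRMA (version not given in the sources used here), and the deposited table holds log2 values per probe set; no raw data were processed here. The 57 control probe sets were left out. Of the other 31042, 20826 carry 1 gene symbol, 436 several and 9780 none in the array annotation, which was matched to GRCr8 gene names. The single-animal arrays were compared in R 4.3.3 by limma 3.58.1 (lmFit, eBayes), and p-values were adjusted by Benjamini-Hochberg over all 31042 probe sets. Every adjusted p comes from this fit, except that of Mcm7 without CTL replicate 3, which comes from the fit without that array. Pooled arrays stayed out of the main fit, being made from those same animals. Near background means no higher on that array than the 95th percentile of 41 receptor probe sets for smell and taste. The fit was tested on simulated data. Values on every array are given for the 3 replication and 5 mitosis members of smallest p and for Mki67, Top2a, Pcna, Cdk1 and Ccnb1, and for some others chosen after their values were seen. Of further lists, called genes and the 4 of smallest p are named, with Cdkn1a and Cdkn1b added after their values were seen. Of cell type lists the first 2 markers and called genes are named, with Cyp19a1, Vwf, Msln and Cdh1 added after their values were seen. The members, lists and motifs were chosen with earlier results of these data known. The alternatives were other scalings, filters, weights, probe sets, criteria and arrays, each array left out in turn, and a covariate for the Gapdh 3' to 5' difference. Another counted Ccne1 and Cdk2 under replication.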

Additional observations from a re-analysis of the deposited data

How the results depend on the processing

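So few arrays limit every result. The medians of both classes stayed positive under every alternative run. They ranged from 0.41 to 0.77 for replication and from 0.25 to 0.85 for cycle and mitosis members with 1 array left out, in both cases lowest without DHT replicate 3, and the replication median was 0.31 on DHT replicates 1 and 2 against CTL replicates 1 and 2, an alternative chosen after seeing the data. No member was called lower under any alternative. Members called higher were 2 with the pooled arrays as replicate 4 (Mcm7 and Prim1), 1 with median scaling, array quality weights or the 4 arrays just named (Mcm7) and 1 with the Gapdh covariate (Prim1), and 0 to 1 with 1 array left out (Mcm7 without CTL replicate 3). The labels do not say that a replicate number marks a shared day or batch. The deviations of same-numbered arrays from their group means correlated at -0.074, 0.44 and 0.34, and of the DHT arrays only replicate 3 correlated best with its own number, so the numbers were not taken to pair the animals, and pairing was not settled. With the replicate block 0 probe sets were called higher and 0 lower, and 0 further replication genes lower. Differences between pooled arrays have no test and gave no counts.

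Over all probe sets, calls higher and lower numbered 211 and 109. They were 533 and 433 with the pooled arrays as replicate 4, 21 and 40 with a mean-variance trend, 730 and 1144 with array quality weights, where CTL replicate 3 had a weight of 0.028, 2659 and 1088 with the Gapdh covariate, 19 and 10 at an adjusted p of 0.05 with no fold criterion, and 523 and 635 on the 4 arrays. Quantile normalization gave 87 higher, and leaving out dim probe sets 178 lower. With 1 array left out they ranged from 0 to 654 higher and from 0 to 968 lower, with 0 without any 1 DHT array and the most without CTL replicate 3.

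Of further replication genes, 0 were called lower with quantile normalization and with a mean-variance trend, 2 higher and 2 lower with array quality weights, 2 higher with the Gapdh covariate and 2 lower on the 4 arrays. With 1 array left out they were 0 to 2 higher and 0 to 1 lower. Of further mitosis genes, 1 was called higher with the pooled arrays, with array quality weights and on the 4 arrays, and 2 with the Gapdh covariate.

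Of the members, 11 changed sign under some alternative. In 5 (Tyms, Ccne1, Kif2c, Fen1, Birc5) the reported difference was between -0.24 and 0.25. In the other 6 it was 0.46 to 0.79, and these changed sign under 1 alternative each, Ccnb1 on the 4 arrays and Mki67, Ccna2, Bub1b, Nusap1 and Cdca3 with the Gapdh covariate. Tyms was at -0.000485 with the pooled arrays, -0.032 with quantile normalization and -0.10 to 0.16 with 1 array left out. Ccne1 was at 0.025 with the pooled arrays, 0.0045 with quantile normalization, 0.0011 with median scaling and -0.10 to 0.00053 with 1 array left out. Kif2c was at 0.0055 with array quality weights, 0.16 as the mean of its probe sets, 0.0048 on the 4 arrays and -0.37 to 0.015 with 1 array left out. With 1 array left out Fen1 ranged from -0.0085 to 0.39 and Birc5 from -0.049 to 0.18. On the 4 arrays Fen1 was at -9.4e-05, Ccnb1 at -0.12 and Birc5 at -0.043. With the Gapdh covariate Tyms was at -0.35, Mki67 at -0.15, Ccna2 at -0.0065, Bub1b at -0.10, Nusap1 at -0.097 and Cdca3 at -0.77. The cause of these changes was not tested.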
